A study of Mus musculus with 6 samples.

Results

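The integrated stress response is represented here by 10 genes, namely Atf4, Atf5, Ddit3, Trib3, Chac1, Asns, Psat1, Fgf21, Gdf15 and Sesn2. They were chosen by symbol, and all 10 were found among the 24062 gene symbols of the count table. Gene expression was measured by RNA-seq of total RNA from both heart ventricles of male C57/Bl6N mice aged 1 day, in 3 libraries from Med12cKO mice, which carried Cre for a cardiac-specific knockout of Med12 (CrePOS), and 3 libraries from control mice without Cre (CreNEG). Med12 is a subunit of the kinase module of Mediator, the coactivator through which transcription factors reach RNA polymerase II. The promoter that drives Cre and the Med12 allele of the controls are not given in the sources used here, and since no control had Cre, Cre itself and Med12 loss cannot be told apart as the source of any difference.

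The integrated stress response is a pathway through which cells answer amino acid shortage, unfolded protein, viral RNA, haem shortage or failing mitochondria. Each of these signals activates one of a few kinases that phosphorylate the translation factor eIF2alpha, which slows protein synthesis as a whole but allows the Atf4 mRNA to be translated. The ATF4 protein then switches on genes for amino acid supply, redox balance and, under lasting stress, cell death, and in heart muscle the same response is best known from defects of mitochondria. Because ATF4 is controlled largely at translation, RNA-seq reads its target genes more directly than its activity.

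No stress response gene passed the test in Med12cKO ventricles. Of the 10 genes, 8 passed the filter on low counts and were tested, and 0 of these 8 had an adjusted p under 0.05 in edgeR's quasi-likelihood test, against 0.022% of the 13629 genes tested. Limma-voom also called 0 of the 8, and DESeq2, which called 0.477% of all genes tested, called 0 of the 7 to which it gave an adjusted p (it left that of Gdf15 undefined). Further, in each of the 3 tools 0 of the 8 had an unadjusted p under 0.05, a level that 3.78% of all genes tested reached in edgeR. The Med12cKO and control libraries overlapped in all 8 genes, while they did not overlap in 8.22% of all genes tested. The largest log2 fold changes were 0.41 for Gdf15 and 0.40 for Psat1, and the lowest was −0.14 for Sesn2. The 95% intervals of the fold change reached from 0.598 (Trib3) to 2.45 (Gdf15), both genes with few reads. That of Psat1, with 205 to 463 reads per library, was also wide, at 0.817 to 2.13. Low counts and the spread between libraries both limited what could be seen.

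The motif TGATGCAA is the core of the DNA site that ATF4 binds together with C/EBP proteins. The promoter stretches of the members that carry it, or the looser form TGATGNAA, are shown because ATF4 is known to act through sites of this kind. Whether ATF4 binds these stretches was not tested. The search covered both strands of RefSeq promoters on GRCm38.p6, from 250 bases before to 50 bases after each annotated start, and every match to TGATGCAA is also a match to TGATGNAA. All 10 members had a promoter in the table. TGATGCAA was present in 2 of the 10, Chac1 and Fgf21, against 1.03% of 27025 genes with a promoter, and TGATGNAA in those 2, Asns and Trib3, against 4.51%. The match of Trib3 lay just after the annotated start and is not printed. Capitals mark the match in the following 60-base stretches, which are written in the direction of the gene, so that a match on the other strand reads TTGCATCA.
Chac1 (chr2:119351023-119351082, plus strand): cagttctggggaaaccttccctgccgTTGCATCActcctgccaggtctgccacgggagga
Fgf21 (chr7:45615596-45615655, minus strand): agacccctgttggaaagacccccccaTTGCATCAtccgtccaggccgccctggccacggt
Asns (chr6:7693210-7693269, minus strand): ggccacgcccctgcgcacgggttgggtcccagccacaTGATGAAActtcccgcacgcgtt
The match began 193 bases before the annotated start in Chac1, 139 bases in Fgf21 and 23 bases in Asns. Chac1 and Fgf21, with the exact match, were among the members with few or no reads in these ventricles. The absence of a match in the other members says only that these letters are not in this window. The members were chosen as genes of this response, so their shares are not evidence of ATF4 binding.

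Library depth ran from 8453346 to 10911698 counts, and values are counts scaled by TMM, edgeR's correction for library composition, to TMM-scaled CPM. The target itself measured 61.3, 84.8 and 41.3 CPM in the Med12cKO libraries and 103, 175 and 113 CPM in the control libraries (replicates 1 to 3 in each). Every Med12cKO library was below every control in Med12, at a mean of 47.9% of the control, but the gene did not pass edgeR over all genes (log2 fold change −1.06, SE 0.30; adjusted p = 0.765) and reached 0.10 in an exact two-sided permutation test, the smallest p that 3 against 3 libraries allow. Cardiomyocyte markers were high in every library, with a summed level of 27432 to 34691 CPM in Med12cKO and 33820 to 46293 CPM in control for 8 genes. Their log2 fold changes were −1.24 for Myh7, −0.78 for Ryr2, −0.38 for Myh6 and Tnnt2, and −0.26 for Tnni3. Those of Actc1 and Mybpc3 were −0.09, and only that of Nkx2-5, 0.16, was positive. In Myh7 and Ryr2 every Med12cKO library was below every control. None of the 8 genes passed edgeR over all genes. In bulk ventricles fewer cells of a type, less RNA per cell and changes of single genes cannot be told apart by such a sum. Med12cKO replicate 1 and control replicate 3 held T-cell transcripts: 10 thymus and T-cell markers summed to 788 and 785 CPM there, and to between 3.43 and 5.40 CPM in the other 4 libraries. For Ddit3, Trib3, Asns, Psat1 and Sesn2 the log2 fold change is also given without these 2 libraries. The remaining 4 were not free of other tissue. In them 5 lung epithelium markers summed to 78.4 CPM in Med12cKO replicate 2 and 55.4 CPM in control replicate 1. That sum was between 0.0953 and 0.787 CPM in all other libraries. Med12cKO replicate 1 also had more Myh8, of skeletal muscle, at 68.7 CPM against 9.92 to 17.9 CPM elsewhere. Not every skeletal muscle marker followed Myh8. Ckm, the one with the most counts, was at 1807 CPM there against 1772 to 2936 CPM elsewhere. The 13 markers together summed to 2403 CPM there against 2114 to 3317 CPM elsewhere.

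**Figure D1:**
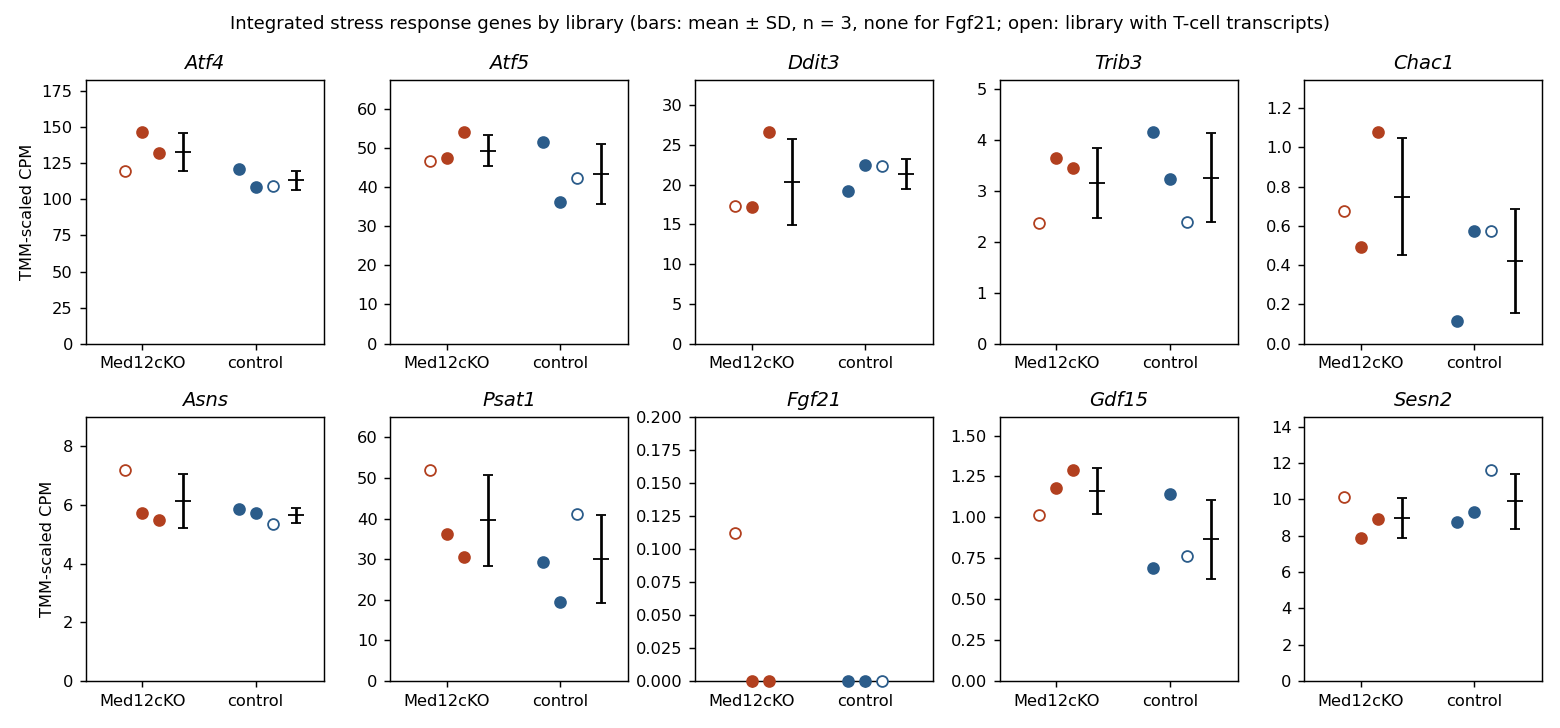
TMM-scaled CPM (vertical axes, from 0) of each of the 10 genes in the 3 Med12cKO libraries (left, orange) and the 3 control libraries (right, blue), with the mean ± SD of each group beside the points except for Fgf21. Open symbols are the 2 libraries with T-cell transcripts. The groups overlap in each gene.

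Compared per length, as FPKM, which here is TMM-scaled CPM divided by exon length in kilobases from GENCODE M21, the transcription factors stood highest. Over the 6 libraries Atf4 ran from 46.2 to 62.1 FPKM with a median of 51.1, Atf5 from 18.2 to 27.1 FPKM with a median of 23.6, and Ddit3 from 10.004 to 15.5 FPKM with a median of 12.1. Psat1 followed with a median level of 7.84 FPKM, then Sesn2 with 2.63, Asns with 2.09, Trib3 with 1.57, Gdf15 with 0.581 and Chac1 with 0.349 FPKM. Fgf21 was last, with a median of 0. Neighbours whose ranges over the libraries overlapped, so that their order is not settled, were Ddit3 and Psat1, Sesn2 and Asns, Gdf15 and Chac1, and Chac1 and Fgf21. Asns and Trib3 lay apart only narrowly, with a lowest Asns level of 1.952 FPKM and a highest Trib3 level of 1.947 FPKM.

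Atf4 encodes the transcription factor at the centre of the response (chromosome 15, 80255184 to 80257541, plus strand, on GRCm38). It measured 120.0, 146 and 132 CPM in Med12cKO and 121, 109 and 109 CPM in control, so that Med12cKO replicates 2 and 3 were above every control and Med12cKO replicate 1 lay just under control replicate 1. The means were 133 ± 13.2 CPM in Med12cKO and 113 ± 6.83 CPM in control (SD, n = 3 each). Its log2 fold change was 0.23 (SE 0.12; edgeR adjusted p = 0.9999, unadjusted p = 0.0799). The 95% interval of the fold, 0.977 to 1.41, covers no change and a rise of up to 1.41-fold. Atf4 had the narrowest interval and the smallest unadjusted p of the 8 tested genes.

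Atf5, a relative of Atf4 that is likewise controlled at translation and in mammalian cells acts on mitochondrial stress genes, lies on chromosome 7 (44812256 to 44816658, minus strand). It measured 46.6, 47.4 and 54.0 CPM in Med12cKO, against 51.6, 36.3 and 42.3 CPM in control. Control replicate 1 was higher than 2 of the 3 Med12cKO libraries. Its log2 fold change was 0.19 (SE 0.15), with an interval of the fold from 0.901 to 1.44. With 1 library left out it ran from 0.07 without control replicate 2 to 0.33 without control replicate 1, and was 0.12 without Med12cKO replicate 3. Of its exon bases 4.11% are shared with genes on the other strand, and whether counting used strand is not known from the labels.

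Ddit3, which encodes CHOP, the factor that carries lasting stress towards cell death, lies on chromosome 10 (127290774 to 127296288, plus strand). It measured 17.3, 17.1 and 26.6 CPM in Med12cKO, against 19.2, 22.5 and 22.3 CPM in control. Med12cKO held both the lowest libraries and the highest one. The log2 fold change was −0.07 (SE 0.20), with an interval of the fold from 0.701 to 1.30. It turned positive without Med12cKO replicate 1 (0.02), without Med12cKO replicate 2 (0.04) and without the 2 libraries with T-cell transcripts (0.06), none of them called. A second gene model of the same symbol shares 6.13% of its exon bases.

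Trib3, a pseudokinase that CHOP and ATF4 induce and that feeds back on them, lies on chromosome 2 (152337422 to 152344032, minus strand). It was counted with 21, 37 and 32 reads in Med12cKO and 36, 34 and 25 reads in control, or 2.36, 3.64 and 3.44 CPM against 4.14, 3.24 and 2.38 CPM. The lowest library of each group was the one with T-cell transcripts. Its log2 fold change was −0.04 (SE 0.31), with an interval of the fold from 0.598 to 1.59. Without those 2 libraries it was −0.06, without Med12cKO replicate 1 it was 0.12 and without control replicate 1 it was 0.17.

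Chac1 encodes an enzyme that breaks down glutathione and is among the most inducible targets of ATF4 (chromosome 2, 119351229 to 119354381, plus strand). Only 6, 5 and 10 reads were counted in the Med12cKO libraries and 1, 6 and 6 reads in the control libraries. It did not pass the filter and was not tested. The summed 21 reads in Med12cKO and 13 reads in control give a ratio of 1.69 per depth, with a 95% Poisson interval from 0.808 to 3.68 that covers counting error only. At this depth a difference in Chac1 could be bounded only by this wide interval, which leaves out the spread between libraries.

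Asns, asparagine synthetase, which makes asparagine from aspartate, lies on chromosome 6 (7675169 to 7693254, minus strand). It measured 7.19, 5.71 and 5.48 CPM in Med12cKO, against 5.86, 5.71 and 5.34 CPM in control. Med12cKO replicate 1 stood above the other 5 libraries, which lay within 5.34 to 5.86 CPM. The log2 fold change was 0.12 (SE 0.22), with an interval of the fold from 0.774 to 1.53. Without Med12cKO replicate 1 it was −0.02, and without both libraries with T-cell transcripts −0.05.

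Psat1, phosphoserine aminotransferase of the serine synthesis pathway, lies on chromosome 19 (15904678 to 15947337, minus strand). It measured 52.0, 36.1 and 30.5 CPM in Med12cKO, against 29.4, 19.5 and 41.1 CPM in control. The highest library of each group was the one with T-cell transcripts, and among the other 4 libraries both Med12cKO values, 36.1 and 30.5 CPM, were above both control values, 29.4 and 19.5 CPM. The log2 fold change was 0.40 (SE 0.30; edgeR adjusted p = 0.9999), with an interval of the fold from 0.817 to 2.13.

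The Psat1 estimate moved with single libraries, with a log2 fold change between 0.14 without Med12cKO replicate 1 and 0.70 without control replicate 3. Without both libraries with T-cell transcripts it was 0.45 (SE 0.24), and with a term for those libraries 0.41 (SE 0.17; unadjusted p = 0.0362, edgeR adjusted p = 0.9996). It was thus about as large without them, and was called in no setting. Of the 10 thymus and T-cell markers none was at 0 in Med12cKO replicate 1 or control replicate 3, where Rag1 stood at 199 and 205 CPM, while it was at or below 1.03 CPM in the other 4 libraries.

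Fgf21 and Gdf15 encode the secreted factors of the response, a metabolic hormone made mostly in liver and a hormone that lowers appetite through the hindbrain. Fgf21 (chromosome 7, 45613886 to 45615490, minus strand) had 1 read in Med12cKO replicate 1 and 0 in the other 5 libraries. A count of 0 allows up to 3 counts, or between 0.286 and 0.345 CPM in these libraries, so both groups were at or below that limit and no fold change is given. The single read came from the library with the highest sum of 6 hepatocyte markers. The sum was 118 CPM there, mostly Alb at 90.9 CPM. It was 32.9 and 2.69 CPM in Med12cKO replicates 2 and 3 and 2.09 to 3.24 CPM in control. Afp was higher in Med12cKO replicate 2, at 7.48 against 0.225 CPM. None of the 6 was at 0 in Med12cKO replicate 1, nor in Med12cKO replicate 2, which had no Fgf21 read. The part of these markers in the Fgf21 read was not tested.

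Gdf15 (chromosome 8, 70629393 to 70632456, minus strand) had 9, 12 and 12 reads in Med12cKO and 6, 12 and 8 reads in control. In CPM these were 1.01, 1.18 and 1.29 against 0.690, 1.14 and 0.763. Control replicate 2 lay within the Med12cKO range and the other 2 controls below it. Gdf15 passed the filter only through the Med12cKO group, where 3 of 3 libraries reached the minimum against 1 of 3 in control, so its positive log2 fold change of 0.41 (SE 0.39) supports no direction. The interval of the fold ran from 0.722 to 2.45. Without control replicate 2 the log2 fold change was 0.67, the highest with 1 library left out, and without control replicate 1 it was 0.28, the lowest.

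Sesn2, a stress-induced sensor of leucine that restrains the growth kinase complex TORC1, lies on chromosome 4 (132492032 to 132510501, minus strand). It measured 10.1, 7.88 and 8.92 CPM in Med12cKO, against 8.74, 9.33 and 11.6 CPM in control. The library with T-cell transcripts was the highest of its group in both, as for Psat1. The log2 fold change was −0.14 (SE 0.20), with an interval of the fold from 0.660 to 1.24. It was −0.01 without control replicate 3, −0.06 without Med12cKO replicate 2, −0.22 without control replicate 1 and −0.25 without Med12cKO replicate 1. Without both libraries with T-cell transcripts it was −0.11.

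**Figure D2:**
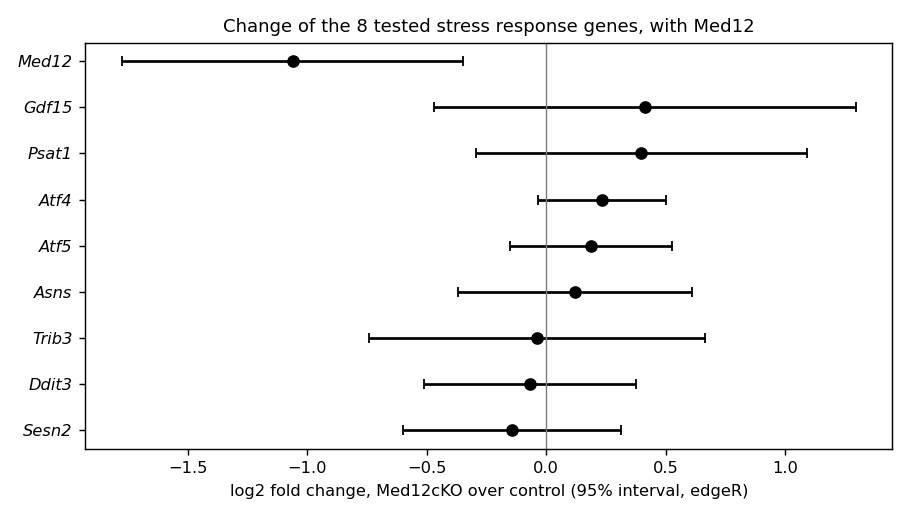
Fitted log2 fold change of Med12cKO over control (horizontal axis) with its 95% interval for Med12 and the 8 stress response genes that were tested. The interval of Med12 lies below 0, and that of each stress response gene includes 0.

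Across the tested genes the median log2 fold change was 0.15, against 0.01 over all genes tested, and 0.12 over the 7 genes that reached the minimum count in every library. By library, the log2 ratio to the control mean had a median of 0.09, 0.13 and 0.15 in Med12cKO replicates 1 to 3, against 0.01, −0.03 and −0.04 in control replicates 1 to 3. In each Med12cKO library 6 of the 8 genes were above the control mean, against 4, 3 and 3 of the 8 in the controls. Gdf15 was among the 6 in each Med12cKO library, with log2 ratios of 0.15, 0.30 and 0.39. The matching share per library over all genes tested is not given here, so whether 6 of 8 is unusual is not known. These medians and counts are descriptions, since the control mean is drawn from the controls themselves and Gdf15 passed through the Med12cKO group.

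The genes around the members gave no call either. Of 118 further genes in 12 lists, from the kinases to the targets, 110 were tested, and edgeR and limma-voom called 0 of them. DESeq2 called 0 of the 108 to which it gave an adjusted p. In each of the 3 tools 1 was higher and 3 were lower at an unadjusted p under 0.05, which in edgeR is 3.64% of the 110, near the 3.78% of all genes tested. In 8.18% of the 110 the groups did not overlap, near the 8.22% of all genes tested. Their median log2 fold change was 0.03.

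Upstream, the eIF2alpha kinases were all expressed. The log2 fold change of Eif2ak1, the haem-regulated kinase HRI, was 0.04 (SE 0.12), that of Eif2ak4, the amino acid sensor GCN2, −0.07 (SE 0.19), and that of Eif2ak3, the endoplasmic reticulum kinase PERK, 0.002 (SE 0.20). Oma1, the mitochondrial protease that starts the signal to HRI, had the largest change of its list at −0.15 (SE 0.19), or −0.23 (SE 0.25) without the libraries with T-cell transcripts, where Eif2ak3 was at −0.04 (SE 0.25). Over 6 tested genes the list had a median of −0.04. The subunits of eIF2 and eIF2B with the eIF2alpha phosphatase regulators had a median of −0.05 over 12 genes, between −0.20 for Eif2b4 and 0.17 for Dnajc3, an inhibitor of PERK.

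The bZIP partners of ATF4 had a median log2 fold change of −0.01 over 8 genes. Atf3, a stress-induced repressor, had the largest at −0.64 (SE 0.31; edgeR unadjusted p = 0.066). It measured 8.76, 12.02 and 7.42 CPM in Med12cKO, against 11.5, 10.8 and 21.6 CPM in control, where replicate 3 stood apart. Control replicate 3 is a library with T-cell transcripts. Without the libraries with T-cell transcripts the log2 fold change of Atf3 was −0.20 (SE 0.30). Nfe2l1, Jund and Nfe2l2, the 3 with the highest counts, lay between −0.07 and 0.05.

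Among amino acid synthesis enzymes the median was 0.09 over 11 genes. Pycr1, which makes proline in mitochondria, measured 7.75, 8.77 and 6.67 CPM in Med12cKO, against 5.17, 4.09 and 5.05 CPM in control. All 3 Med12cKO libraries were above all 3 controls, with a log2 fold change of 0.70 (SE 0.22; unadjusted p = 0.0116, edgeR adjusted p = 0.828), which did not pass. Aldh18a1, the enzyme before it in proline synthesis, measured 60.3, 62.1 and 62.6 CPM in Med12cKO, against 56.2, 53.1 and 50.9 CPM in control (log2 fold change 0.21, SE 0.11; unadjusted p = 0.082). The 3 enzymes with the highest counts had log2 fold changes of −0.29 (Got1), −0.17 (Shmt2) and 0.04 (Pck2), none of which passed.

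Some genes of amino acid supply shared the library pattern of Psat1, and those given here were chosen for it after their values were seen. Phgdh, the first enzyme of serine synthesis, measured 13.9, 4.92 and 4.09 CPM in Med12cKO, against 2.64, 3.05 and 9.53 CPM in control. Mthfd2, of the mitochondrial folate pathway, measured 10.8, 7.78 and 5.27 CPM in Med12cKO, against 4.60, 5.43 and 10.96 CPM in control. Slc7a11, the cystine importer, stood at 5.84 CPM in Med12cKO replicate 1 and 7.34 CPM in control replicate 3, and between 0.345 and 0.645 CPM in the other 4 libraries. In these 3 genes the library with T-cell transcripts was the highest of its group, whereas in Psph, Shmt2 and Aldh1l2, further enzymes of serine and one-carbon metabolism, this did not hold in both groups. Without the 2 libraries with T-cell transcripts the log2 fold change was 0.65 (SE 0.38) for Phgdh, against 0.58 with all 6, and 0.37 (SE 0.34) for Mthfd2, against 0.18, and neither was called. Slc7a11 did not pass the filter in either case. The 2 libraries with T-cell transcripts were the 2 highest of the 6 in 2 of 8 tested stress response genes (Psat1 and Sesn2), against 11.4% of all genes tested. Among the related lists they were the 2 highest in 3 of 6 genes of the eIF2alpha kinase list (Eif2ak2, Eif2ak3 and Oma1), in 3 of 11 amino acid synthesis genes (Phgdh, Mthfd2 and Mthfd1l), in 2 of 15 genes of the ATF6 and XBP1 arms, and in 1 or 0 genes of each of the other 9 lists.

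**Figure D3:**
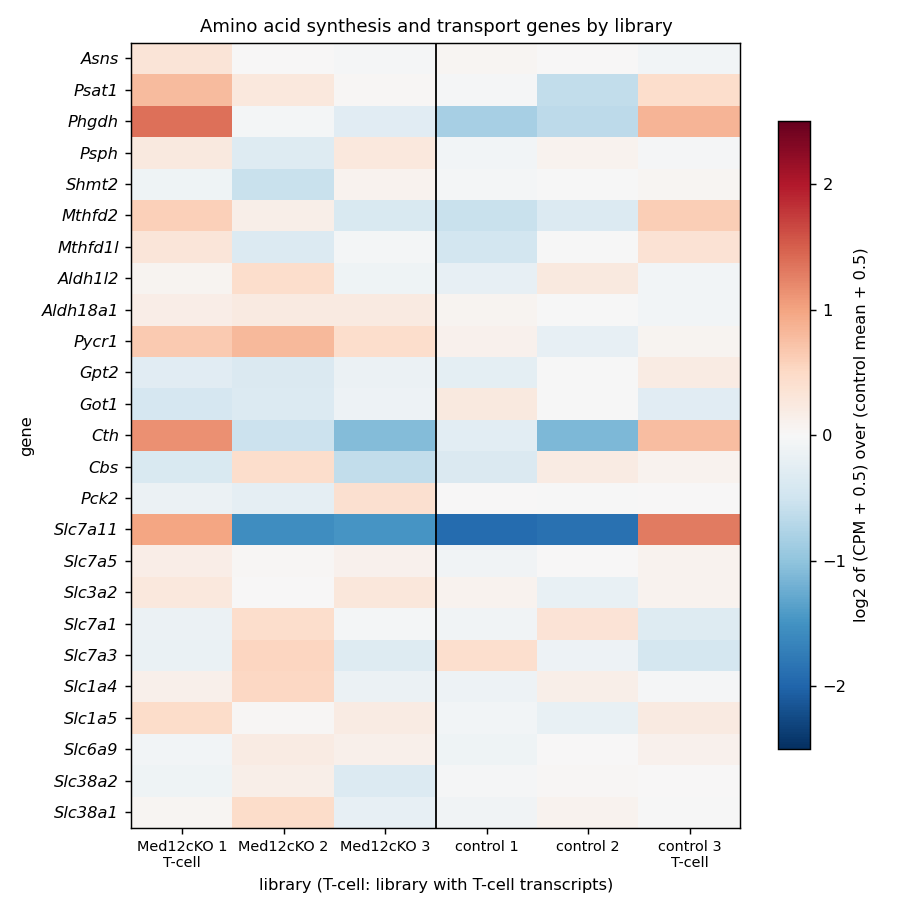
Log2 ratio of CPM + 0.5 to the control mean + 0.5 (colour, red above and blue below) for Asns, Psat1 and the amino acid synthesis and transport lists (rows) in the 3 Med12cKO and 3 control libraries (columns). Psat1, Phgdh, Mthfd2, Cth and Slc7a11 are red in Med12cKO replicate 1 and control replicate 3, the libraries with T-cell transcripts.

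The other target groups held no called gene. Amino acid transporters had a median log2 fold change of 0.11 over 8 genes, with −0.09 for the glutamine carrier Slc38a2, which had the highest counts, and the largest change, 0.25 (SE 0.15), for Slc1a5. The cytosolic tRNA synthetases had a median of 0.04 over 13 genes, the largest being 0.17 (SE 0.10) for Aars. Further stress genes downstream of ATF4 or CHOP had a median of −0.10 over 13 genes. Among them Vldlr, a lipoprotein receptor, measured 153, 200 and 145 CPM in Med12cKO, against 213, 223 and 203 CPM in control (log2 fold change −0.36, SE 0.14; unadjusted p = 0.031, edgeR adjusted p = 0.9999). All 3 Med12cKO libraries were below the controls, but the difference did not pass. Of 12 genes in these lists whose promoter holds TGATGCAA, out of 92 with a promoter in the table, 11 were tested, 6 with a positive and 5 with a negative log2 fold change, between −0.64 (Atf3) and 0.70 (Pycr1).

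The other arms of the unfolded protein response and the mitochondrial chaperones are read by their own genes. For the ATF6 and XBP1 arms, 13 of 15 genes had a positive log2 fold change, against 52.2% of all genes tested, with a median of 0.14 and 0 genes at an unadjusted p under 0.05. Their main chaperone Hspa5, also called BiP, measured 537, 679 and 515 CPM in Med12cKO, against 617, 473 and 444 CPM in control (log2 fold change 0.18, SE 0.17). The groups overlapped in each of the 15 genes. Without the libraries with T-cell transcripts the log2 fold change was 0.13 (SE 0.24) for Hspa5. It was 0.10 for Hsp90b1, against 0.17 with all libraries, and 0.05 for Calr, against 0.13. Sdf2l1 (0.34), Atf6 (0.27), Edem1 and Ern1 had higher values without these libraries. Genes of the same arm may move together, so 13 of 15 is a description only. The mitochondrial chaperones and proteases had a median of −0.04 over 8 genes, with Hspa9 at −0.13 (SE 0.13) and Clpx at −0.31 (SE 0.13; unadjusted p = 0.038).

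Relatives and receptors of the members were also measured. Sesn1, a p53-induced sestrin, showed a log2 fold change of −0.17 (SE 0.11). For Trib2, a relative of Trib3, it was −0.27 (SE 0.12; unadjusted p = 0.0483), with all 3 Med12cKO libraries below the controls. Among receptors, Fgfr1, through which FGF21 signals, measured 88.0, 113 and 83.4 CPM in Med12cKO, against 79.5, 86.6 and 69.9 CPM in control. Its co-receptor Klb had at most 2 reads in any library, and Gfral, the receptor of GDF15, had 0 reads in all 6.

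**Figure D4:**
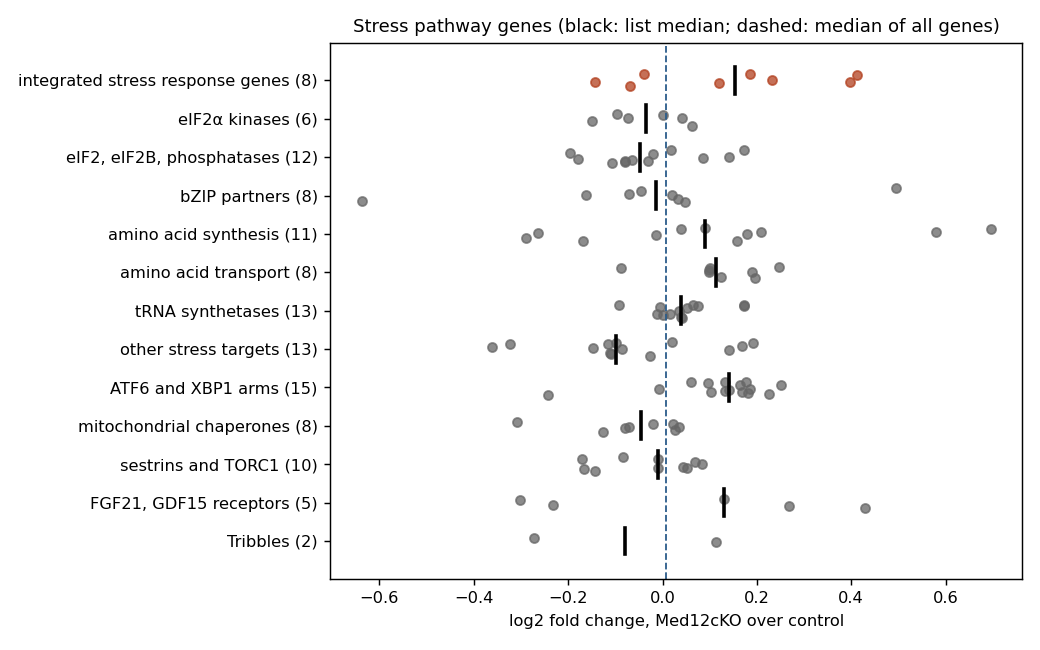
Log2 fold change of Med12cKO over control (horizontal axis) for each tested gene of the stress response members (top, orange) and of the 12 related lists (grey), with the number tested in brackets. Black bars are list medians and the dashed line the median of all genes; list medians lie between −0.10 and 0.15.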

How the data were processed

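The values the authors deposited are raw read counts for each gene symbol, not normalized. Per the submitters' processing notes reads were handled with edgeR 3.14.0, featureCounts and TopHat2 2.0.0 on build GRCm38 (mm10); annotation, strand setting and filters are not given in the sources used here. Groups and replicate numbers come from the titles. The labels do not tie libraries to single animals, so a p-value speaks only of the spread among these libraries, which may be technical.

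The test was edgeR 4.0.16's robust quasi-likelihood F test (R 4.3.3) on the counts, with TMM scaling and filterByExpr (minimum count 10, minimum total 15), Benjamini-Hochberg adjusted over all 13629 genes tested, at 0.05. The SE is the log2 fold change over the square root of F. DESeq2 1.42.0 and limma-voom (limma 3.58.1) were alternatives. FPKM divides CPM by GENCODE M21 exon length. The tests were also run on simulated data, but the share of changes they recovered is not given here. The 0 calls among the members do not exclude changes, and for some members not only small ones. The upper bound of the fold ran from 1.24 for Sesn2 to 2.45 for Gdf15, and was 2.13 for Psat1. The lowest bound was 0.598, for Trib3. Med12 itself, at a mean of 47.9% of the control, was not called by edgeR. Within groups, library pairs differed by 14.5 to 29.3 chi-square per degree of freedom, so none was counted as a repeat run. Members, lists and alternatives were chosen with earlier results of these data known. From each list, genes past the threshold, the 3 with the highest average CPM and the one with the largest change were eligible to be named; others named for a library pattern, an unadjusted p or a role were chosen after their values were seen. A library counted as holding T-cell transcripts where 10 markers averaged at least 10 CPM. Intervals from counts cover counting error only.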

Additional observations from a re-analysis of the deposited data

How the results depend on the processing

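Over 17 alternative settings no stress response gene and no gene of the related lists was called, DESeq2 leaving Gdf15 and 2 related genes without an adjusted p. They were limma-voom, DESeq2, its size factors within edgeR, scaling by totals alone, no filter, a minimum of 1 CPM throughout a group, the replicate block, the first letter of the sample description (as block, or letter I alone), the libraries with T-cell transcripts left out or given a term (the last chosen after seeing the data), and each of 6 libraries left out. The count of called genes was 3 with edgeR, 65 with DESeq2 (0.477% of genes tested), 1 in the 4 libraries with letter I, and 1 to 3 with a library left out. Med12 had an adjusted p of 0.025 in DESeq2 (log2 fold change −1.06). The median log2 fold change of the tested stress response genes was 0.21 in the libraries with letter I and 0.10 to 0.22 with a library left out. Letter J belonged to Med12cKO replicate 2 and control replicate 1, the libraries with lung epithelium transcripts. The libraries with letter I included both of those with T-cell transcripts. Signs turned for Ddit3 (0.061) and Asns (−0.052) without the libraries with T-cell transcripts and for Trib3 (0.058) in the libraries with letter I. With a library left out Ddit3 ran from −0.31 to 0.039, Trib3 from −0.22 to 0.17 and Asns from −0.022 to 0.19. The cause was not tested. With the replicate block 2 genes and 0 stress response genes were called. Med12 had a log2 fold change of −1.08 with that block (SE 0.15; edgeR unadjusted p = 0.000103, adjusted p = 0.168). Same-numbered deviations from the group means correlated at −0.32, 0.46 and −0.36. Med12cKO replicates 1 and 3 correlated best with control replicates 3 and 1 (0.73 and 0.33). These values cannot decide whether the numbers pair the libraries, since Med12cKO replicate 1 and control replicate 3 share T-cell transcripts. Without the low-count filter the log2 fold change of Chac1 was 0.79 (SE 0.68; adjusted p = 0.9995 in edgeR). Depth limits Chac1, Fgf21, Gdf15 and Trib3 most.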

Other observations

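Of the genes in the lists for the ATF6 and IRE1-XBP1 arms, 2 varied between libraries of both groups far more than between the groups, and were chosen here after their values were seen. Ern1, which encodes the stress sensor IRE1alpha, measured 3.15, 14.6 and 1.51 CPM in Med12cKO replicates 1 to 3, against 2.99, 14.9 and 4.86 CPM in control replicates 1 to 3. Replicate 2 was thus the highest library in both groups. Edem1, which helps to clear misfolded proteins from the endoplasmic reticulum, measured 91.8, 40.9 and 25.1 CPM in Med12cKO and 31.8, 31.4 and 94.96 CPM in control. Its 2 highest libraries were those with T-cell transcripts. The fitted log2 fold changes were −0.24 (SE 1.03) for Ern1 and −0.01 (SE 0.71) for Edem1, which without the libraries with T-cell transcripts was at 0.06 (SE 0.25).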
